A study of Mus musculus with 23 samples.

Results

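The replication-dependent histone genes were taken as the protein-coding genes of GENCODE M21 whose symbol starts with Hist1h, Hist2h, Hist3h or Hist4h. This choice used names only, and gave 67 of 21938 protein-coding genes. By class, 6 encode the linker histone H1, 18 encode H2A, 18 encode H2B, 12 encode H3 and 13 encode H4. By place, 54 lie on chromosome 13, 10 on chromosome 3, 2 on chromosome 11 and 1 on chromosome 6. Each gene was placed at the 5′ end of its annotation, its transcription start site (TSS), and counted as marked in a peak list when a peak overlapped the 1 kb on either side of that TSS.

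Chromatin came from the cerebral cortex of Ebf2-EGFP mouse embryos of the strain Tg(Ebf2-EGFP)FB58Gsat, in which a transgene expresses EGFP where Ebf2 is active. Cells were sorted by fluorescence, and ChIP-seq was run for H3K27ac and H3K27me3. The sorted groups were Ebf2-EGFP+ cells of 3 embryonic days (E11.5 and E13.5, and lastly E15.5) and Ebf2-EGFP- cells of E11.5. The Ebf2-EGFP+ cells are preplate neurons at E11.5 and mostly Cajal-Retzius neurons by E15.5, while the Ebf2-EGFP- cells of E11.5 are mostly neural stem and progenitor cells. All 4 cell groups carry the transgene by the strain label, and none was treated. Of 23 samples, 15 were ChIP samples and 8 were inputs. ChIP groups had 2 samples and gave 1 peak list each, and only the Ebf2-EGFP- group for H3K27ac had 1 sample.

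Replication-dependent histone genes supply the histones that package newly copied DNA, so they are known for transcription in S phase and for low output in cells that have left the cell cycle. They have no introns as a rule, stand in clusters, often as H2A and H2B genes that share a promoter and run apart from each other, and end their mRNAs at a stem-loop in place of a poly(A) tail. H3K27ac is a mark of active promoters and enhancers, and H3K27me3 is the mark laid down by Polycomb repressive complex 2 at silent genes.

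The stem-loop, which the stem-loop binding protein Slbp recognises, is shown first because it defines the mRNAs of this family. It was searched as 6 bases starting with GG, 4 loop bases starting with TT and the reverse complement of the first 6, within 100 bases after a stop codon in GRCm38. It was found in 63 of 67 members and in 9 of the 21871 other protein-coding genes. In the 63 members it began a median of 31 bases after the stop codon. There were 6 versions, given here 5′ to 3′ with the loop in capitals. The first was the version of 41 members, the next of 9 and the next of 8, and the last 3 were those of 2, 2 and 1. The versions of 8 and of 2 members each were carried by H4 genes only, 12 in all.
Hist3h2ba: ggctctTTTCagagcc
Hist1h2bl: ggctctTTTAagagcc
Hist1h4k: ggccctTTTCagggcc
Hist1h4i: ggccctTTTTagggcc
Hist1h4j: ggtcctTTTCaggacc
Hist2h2ac: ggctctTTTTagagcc

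These copies are named for 1 member each: chr11:58949349-58949364 on the plus strand, chr13:21715718-21715733 on the minus strand, chr13:21750150-21750165 on the minus strand, chr13:22040966-22040981 on the minus strand, chr13:21735437-21735452 on the plus strand and chr3:96220418-96220433 on the minus strand. The stem-loop was not found in Hist1h2an, Hist1h3g, Hist1h4a and Hist2h2be within that reach.

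The sequence before the TSS is shown for members of each kind of outcome described further on. All are from GRCm38, 5′ to 3′, with 3 motifs on either strand in capitals. CCAAT is the box that NF-Y binds, the TATA box was searched as TATAAA, and ATTTGCAT is the octamer known from H2B promoters. The first is the whole stretch between the TSS of Hist1h2ae and that of Hist1h2bg (chr13:23571221-23571395, plus strand), a divergent pair marked by H3K27ac at all 3 stages. The others are the 250 bases before the TSS of Hist1h2aa (chr13:23934212-23934461), Hist1h3h (chr13:21717409-21717658), Hist1h4j (chr13:21734814-21735063), Hist1h1c (chr13:23738558-23738807) and Hist1h1t (chr13:23695564-23695813), all on the plus strand. Hist1h2aa and Hist1h1t are histones of the male germ line, Hist1h3h held H3K27ac in both E11.5 cell groups, Hist1h4j held H3K27me3 in neurons, and Hist1h1c is a somatic H1.
Hist1h2ae/Hist1h2bg: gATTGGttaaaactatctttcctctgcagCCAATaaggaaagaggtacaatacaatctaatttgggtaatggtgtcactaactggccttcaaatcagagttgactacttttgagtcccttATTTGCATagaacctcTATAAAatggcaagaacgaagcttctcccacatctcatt
Hist1h2aa: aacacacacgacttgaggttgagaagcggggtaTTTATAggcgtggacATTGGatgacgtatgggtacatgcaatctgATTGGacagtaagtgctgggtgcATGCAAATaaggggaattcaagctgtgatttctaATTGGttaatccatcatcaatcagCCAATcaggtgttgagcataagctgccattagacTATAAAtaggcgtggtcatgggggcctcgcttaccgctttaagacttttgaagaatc
Hist1h3h: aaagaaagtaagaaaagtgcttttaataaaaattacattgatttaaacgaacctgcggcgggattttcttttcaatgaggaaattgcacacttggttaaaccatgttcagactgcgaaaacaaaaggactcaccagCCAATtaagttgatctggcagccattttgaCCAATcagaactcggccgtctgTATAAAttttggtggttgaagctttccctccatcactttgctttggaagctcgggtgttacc
Hist1h4j: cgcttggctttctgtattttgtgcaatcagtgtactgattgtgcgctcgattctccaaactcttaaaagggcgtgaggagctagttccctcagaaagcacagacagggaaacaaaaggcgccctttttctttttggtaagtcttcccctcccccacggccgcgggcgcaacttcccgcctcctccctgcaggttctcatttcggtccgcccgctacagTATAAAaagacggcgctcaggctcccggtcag
Hist1h1c: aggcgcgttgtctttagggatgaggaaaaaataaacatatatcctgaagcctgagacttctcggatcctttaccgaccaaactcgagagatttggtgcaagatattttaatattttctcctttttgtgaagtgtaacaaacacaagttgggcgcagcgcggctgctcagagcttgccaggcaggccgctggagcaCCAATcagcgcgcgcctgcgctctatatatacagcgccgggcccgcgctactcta
Hist1h1t: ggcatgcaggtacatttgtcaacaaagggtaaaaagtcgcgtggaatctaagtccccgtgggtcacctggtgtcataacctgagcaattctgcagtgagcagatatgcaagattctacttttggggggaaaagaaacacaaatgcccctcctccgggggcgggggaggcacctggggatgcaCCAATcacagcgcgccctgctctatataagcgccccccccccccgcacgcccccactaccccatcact

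In the promoters of all members, taken as 250 bases before to 50 bases after the TSS, CCAAT was present in 56 of 67 (83.6%), against 39% of all 21938 protein-coding promoters. TATAAA was present in 55.2% of members and 12.6% of all promoters, and ATTTGCAT in 22.4% and 1.57%. The motifs were not spread evenly over the classes. ATTTGCAT was in 7 of 18 H2A and 8 of 18 H2B promoters and in none of the H1, H3 and H4 promoters. CCAAT was in all 36 H2A and H2B promoters and in 4 of 13 H4 promoters (30.8%). Members of a divergent pair share much of their promoter, so their counts are not independent. The annotated 5′ end of Hist1h2be lies 35168 bp from its start codon, next to Hist1h1e, so its window is not that of its coding exon.

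The 8 lists were of unequal length. For H3K27ac the Ebf2-EGFP- list held 1386 peaks, and the Ebf2-EGFP+ lists held 37055, 102881 and 25793 in order of stage. For H3K27me3 the Ebf2-EGFP- list held 48963 peaks, and the Ebf2-EGFP+ lists 6387, 6721 and 1438. The cell group labels were set against marker genes: of 6 Cajal-Retzius and preplate markers, 4, 3 and 4 held H3K27ac at the 3 stages of Ebf2-EGFP+ cells, Trp73 and Lhx5 at each, while Ebf2 itself had no H3K27ac peak within 1 kb in any list. Markers of other neural cells were marked in the same lists, progenitor markers in 3 of 5 at each stage and interneuron markers in 2, 2 and 1 of 3, so H3K27ac at these short lists did not set the labelled cell type apart. In the Ebf2-EGFP- lists H3K27ac was at none of 5 progenitor markers and H3K27me3 at Sox2, Vim and Nes, genes known for activity in progenitors. Hox genes, known to be silent in the cortex, were a list added after the values were seen: H3K27me3 in Ebf2-EGFP- cells was near 20 of 39 (51.3%, against 36.2% of all genes). H3K27ac in Ebf2-EGFP+ cells was near 9 of 39 Hox genes at E11.5 (23.1%, against 40.6%), 27 at E13.5 (69.2%, against 44.5%) and 7 at E15.5 (17.9%, against 46%). H3K27me3 in Ebf2-EGFP+ cells was near 0 of 39 Hox genes at E11.5 (against 1.89%). It was near 11 at E13.5 (28.2%, against 5.34%) and 5 at E15.5 (12.8%, against 0.451%). The 2 Ebf2-EGFP- lists, the E13.5 H3K27ac list and the E11.5 Ebf2-EGFP+ H3K27me3 list are therefore given here by their labels. What made them so was not tested. Red blood cell markers (1 of 3 at E13.5, Hba-a1), endothelium markers (1, 1 and 0 of 3) and microglia markers (0 of 2) were little marked by H3K27ac in Ebf2-EGFP+ cells, and their part in the results was not tested.

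H3K27ac was near most replication-dependent histone genes at each stage of the Ebf2-EGFP+ neurons. The E11.5 list marked 54 of 67 members (80.6%), against 40.6% of all protein-coding genes. The E13.5 list marked 53 (79.1%, against 44.5%), and the E15.5 list 60 (89.6%, against 46%). The 95% Wilson intervals of the members' shares were 69.6 to 88.3%, 67.9 to 87.1% and 80 to 94.8%, which overlap each other and lie above the share of all genes. They cover counting over genes only: each cell group has 1 list, so there is no replicate error and no test between groups, and neighbouring members can share 1 peak. Counted over the 54 promoter units left after joining members with a TSS within 1 kb of each other, the shares were 79.6%, 75.9% and 88.9%.

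**Figure D1:**
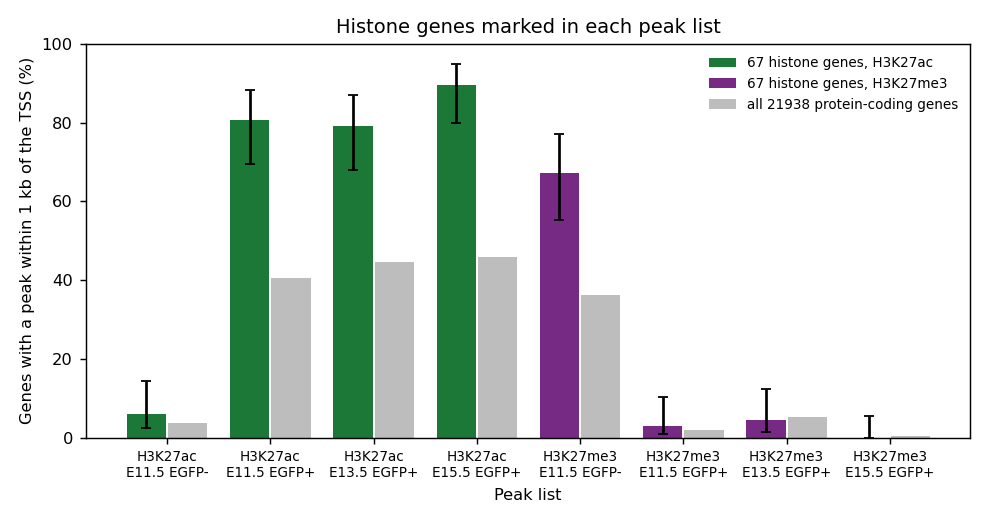
Share of genes with a peak within 1 kb of the TSS in each of the 8 peak lists (percent), for the 67 histone genes (coloured bars, with 95% Wilson intervals over genes) and all 21938 protein-coding genes (grey bars). The histone genes stand at 80.6%, 79.1% and 89.6% for H3K27ac in Ebf2-EGFP+ cells and at 67.2% for H3K27me3 in Ebf2-EGFP- cells, and at 5.97% or less in the other 4 lists.

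In the E11.5 Ebf2-EGFP- cells more members held H3K27me3 than H3K27ac. H3K27ac was near 4 members (5.97%, 2.35 to 14.4%), against 3.63% of all genes, and H3K27me3 was near 45 (67.2%, 55.3 to 77.2%), against 36.2%. In Ebf2-EGFP+ cells H3K27me3 was near 2 members in the E11.5 list (2.99%, against 1.89%), 3 in the E13.5 list (4.48%, against 5.34%) and 0 in the E15.5 list (against 0.451%). The last count, 0 of 67, allows a share of up to 4.48% by a limit of 3 counts and of up to 5.42% by the Wilson interval, both for counting error only. The members' shares of H3K27me3 in neurons were thus near those of all genes, with intervals that held the background at E11.5 (0.822 to 10.2%) and E13.5 (1.53 to 12.4%).

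Of the 67 members, 41 held H3K27ac at all 3 stages of Ebf2-EGFP+ cells (61.2%, against 24% of all genes), 20 at 2 stages, 4 at 1 stage and 2 at none. Leaving out the E13.5 list, 49 held it at both other stages (73.1%, against 33.7%). The 4 marked at 1 stage were Hist1h1b at E11.5 with a peak of 199 bp, and Hist1h4d (340 bp), Hist1h3a (415 bp) and Hist1h1a (220 bp) at E15.5. The Hist1h1b peak is centred 886 bp after the TSS and lies wholly past the 3′ end of the gene. Hist1h1d and Hist1h1t, both H1 genes, had no peak in any list. For Hist1h1d this rests on its annotated 5′ end, which lies 1828 bp before its start codon. Within 1 kb of that start codon it had H3K27ac peaks of 339 bp at E11.5 and 582 bp at E15.5, so Hist1h1t was then the 1 member without a peak. That check was chosen after the values were seen.

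**Figure D2:**
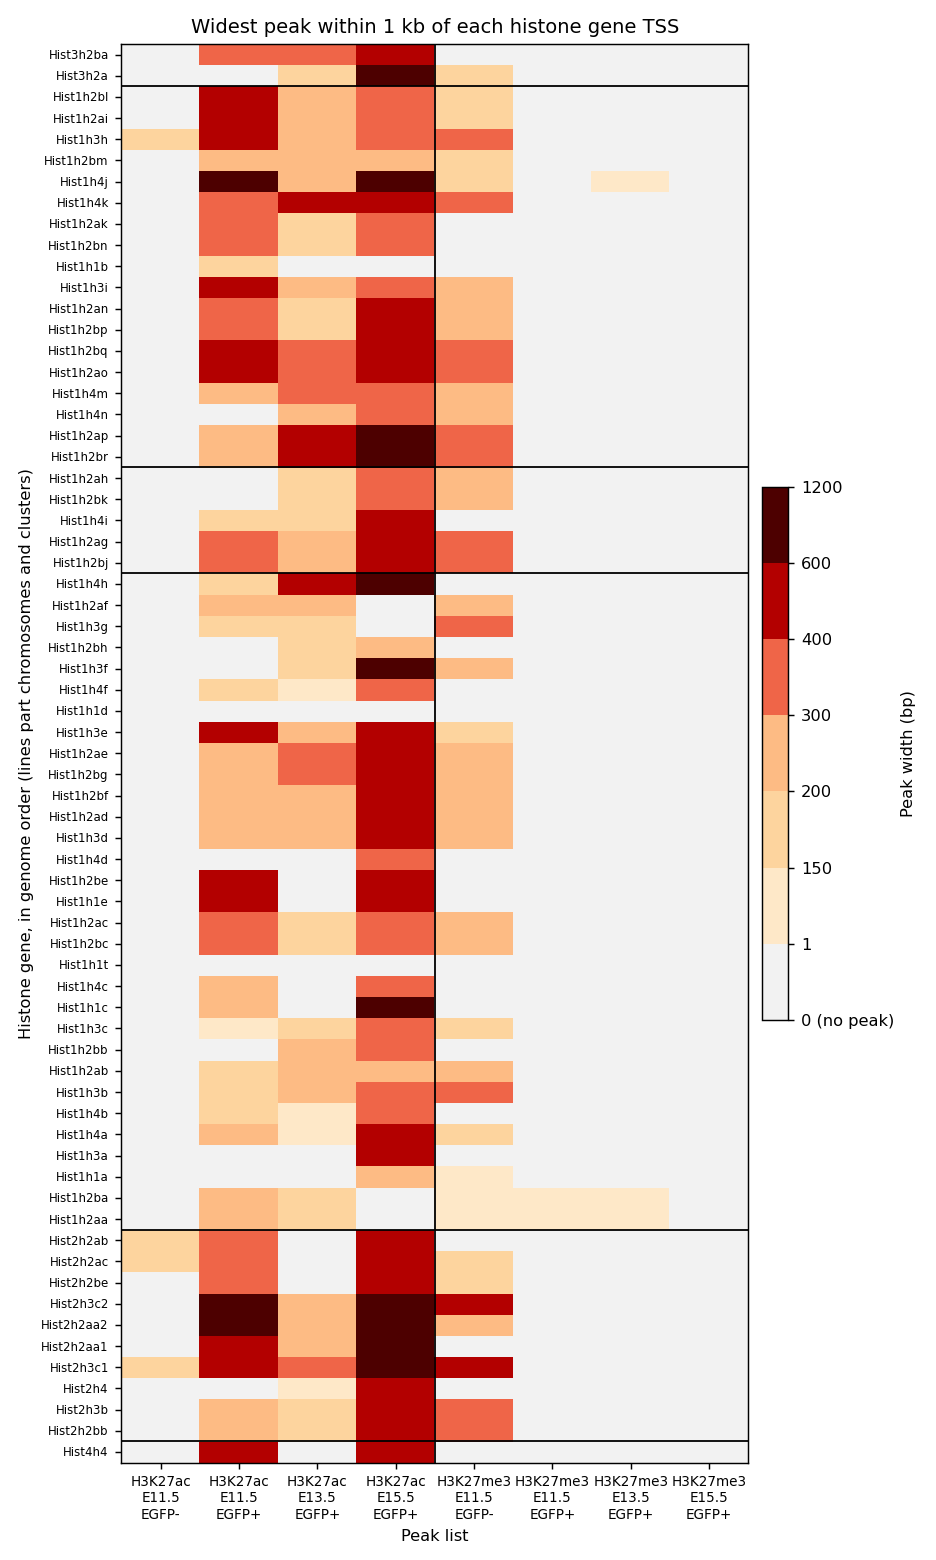
Width in bp of the widest peak within 1 kb of the TSS for each of the 67 histone genes (vertical axis, in genome order, with lines between chromosomes and clusters) in each of the 8 peak lists (horizontal axis); pale grey is no peak. A peak can lie nearer to a neighbouring member. The H3K27ac columns of Ebf2-EGFP+ cells and the H3K27me3 column of Ebf2-EGFP- cells are filled for most genes, and the rows of Hist1h1d and Hist1h1t are empty.

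The linker histone genes were the class with the fewest peaks. H1 binds the DNA between nucleosomes and compacts the fibre. Of 6 H1 members, 3, 0 and 3 held H3K27ac in order of stage (50%, 0% and 50%, against 40.6%, 44.5% and 46% of all genes). The count at E11.5 includes Hist1h1b, whose peak lies past its 3′ end. H3K27me3 in Ebf2-EGFP- cells was at 1 of them (16.7%, against 36.2%). Hist1h1c, a somatic H1, had H3K27ac peaks of 223 bp at E11.5 and 859 bp at E15.5, and Hist1h1e had peaks of 498 and 578 bp. Both were without a peak at E13.5, although that list was the longest. Hist1h1a had the 1 H3K27me3 peak of the class, of 131 bp in Ebf2-EGFP- cells. Counted at start codons, H3K27ac was at 4, 0 and 4 of 6. Hist1h1t, the testis H1, had none at either position.

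H2A genes, which code for the histone that pairs with H2B at the face of the nucleosome, were marked by H3K27ac in 16 of 18 members at each stage. The 2 unmarked members were different ones each time: Hist3h2a and Hist1h2ah in the E11.5 list, Hist2h2ab and Hist2h2ac in the E13.5 list, and Hist1h2af and Hist1h2aa in the E15.5 list. H3K27me3 in Ebf2-EGFP- cells was at 15 of 18. H2B genes were marked by H3K27ac in 15, 16 and 17 of 18 and by H3K27me3 in Ebf2-EGFP- cells in 13. Hist1h2ba, the testis H2B, was the only H2B member without H3K27ac at E15.5.

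H3 genes, which carry the very lysine that both marks sit on, were marked by H3K27ac in 10, 11 and 11 of 12 and by H3K27me3 in Ebf2-EGFP- cells in 11. Hist1h3a was the member without H3K27me3, and also without H3K27ac at E11.5 and E13.5. H4 genes were marked by H3K27ac in 10, 10 and 13 of 13. Their H3K27me3 in Ebf2-EGFP- cells was less frequent, at 5 of 13 (38.5%), near the 36.2% of all genes. The 8 without it were Hist1h4b, Hist1h4c, Hist1h4d, Hist1h4f, Hist1h4h, Hist1h4i, Hist2h4 and Hist4h4. They held H3K27ac at E15.5, as did all 13 H4 members. The classes are small, and these counts carry no test.

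**Figure D3:**
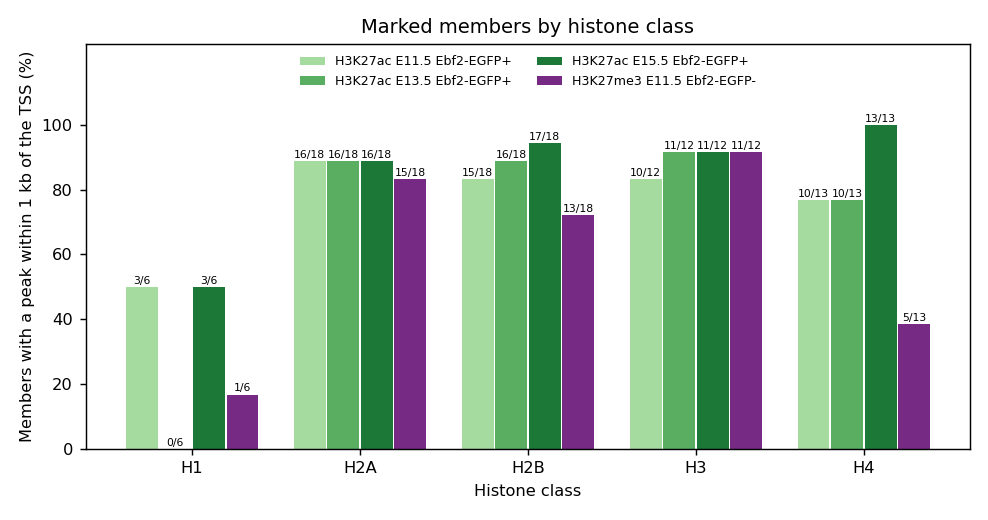
Share of members with a peak within 1 kb of the TSS (percent) by histone class, for H3K27ac at 3 stages of Ebf2-EGFP+ cells (green) and H3K27me3 of Ebf2-EGFP- cells (purple), with the counts above the bars. H1 stands below the other classes for H3K27ac, at 3, 0 and 3 of 6, and H4 goes from 13 of 13 for H3K27ac at E15.5 to 5 of 13 for H3K27me3.

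The classes also differ in how alike their copies are, which bears on how short reads are placed. By the study's methods, a read with more than 1 alignment was reported once. All 13 H4 members encode 1 protein of 103 residues, 7 of 12 H3 members share 1 protein and 9 of 18 H2A members share another, while the 6 H1 proteins all differ. Of the 50-base words in the 500 bp after the TSS, a median of 42.4% over all members occurred once in GRCm38, with a range from 0 to 100%. That median was 100% for H1, 57.9% for H4, 40.6% for H2B, 35.9% for H2A and 31.8% for H3. In the 500 bp before the TSS the median over all members was 100%.

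In the 4 lists that mark most members, those with a peak had a lower share of such words than those without. For H3K27ac the medians were 39% in 54 marked and 75.4% in 13 unmarked members at E11.5, 37.3% and 90.8% at E13.5, and 39.2% and 98.2% at E15.5. For H3K27me3 in Ebf2-EGFP- cells they were 35.7% in 45 marked and 68.3% in 22 unmarked members. No word occurred once in Hist1h2bq, Hist1h2ao, Hist1h2ap, Hist1h2br, Hist2h3c2, Hist2h2aa2 and Hist2h3c1, and few did in Hist2h2aa1 (4.43%), Hist1h4n (6.87%) and Hist1h4m (8.87%): whether a peak there belongs to 1 of such copies or to the other cannot be told. H1 members, with a median of 100%, held H3K27ac in 3, 0 and 3 of 6 and H3K27me3 in Ebf2-EGFP- cells in 1 of 6. Class and share of unique words are thus not separated in these medians. The part of either in the counts was not tested.

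Of the 13 members outside chromosome 13, H3K27ac was at 11, 9 and 13 at the 3 stages of Ebf2-EGFP+ cells. The 10 genes of chromosome 3 held H3K27ac in 9, 7 and 10 members at the 3 stages and H3K27me3 in Ebf2-EGFP- cells in 7. Neighbouring genes there, Hist2h2ab, Hist2h2ac and Hist2h2be, shared an H3K27ac peak of 391 bp at E11.5 and peaks of 492 and 453 bp at E15.5, and had none at E13.5. The widest peaks near any member lay here: 1122 bp over Hist2h3c2 and Hist2h2aa2 at E11.5 (chr3:96239301-96240422), and 1098 bp near Hist2h2aa1 and Hist2h3c1 at E15.5 (chr3:96245137-96246234). These 4 genes are among the near-identical copies named above, so the place of both peaks is uncertain. On chromosome 11, Hist3h2ba had H3K27ac of 356, 322 and 437 bp, and Hist3h2a had none at E11.5, 163 bp at E13.5, and at E15.5 463 bp after the TSS and 721 bp before it. Hist4h4 on chromosome 6 had 424 bp at E11.5, none at E13.5 and 426 bp at E15.5. Hist2h4, the H4 gene of chromosome 3, had none at E11.5, 149 bp at E13.5 and 498 bp at E15.5.

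In Ebf2-EGFP- cells the 4 members that held H3K27ac were Hist1h3h, Hist2h2ab, Hist2h2ac and Hist2h3c1, from 3 peaks of 157 to 193 bp. All 4 were marked in E11.5 Ebf2-EGFP+ cells as well, as were 751 of all 797 protein-coding genes with H3K27ac in Ebf2-EGFP- cells. Hist1h3h had a 193-bp peak there (chr13:21717734-21717926), and its own peaks were 339, 129 and 347 bp at the 3 stages of Ebf2-EGFP+ cells, narrower at E13.5 and wider at E11.5 and E15.5. Both marks were at 3 of the 67 members in Ebf2-EGFP- cells (4.48%, against 2.87% of all genes). That is all of the 4 but Hist2h2ab, and of all genes with H3K27ac in those cells 78.9% held both.

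Peaks with H3K27me3 in Ebf2-EGFP+ cells came down to 1 divergent pair and 1 H4 gene. Hist1h2ba and Hist1h2aa, the testis H2B and H2A, shared a 116-bp peak at E11.5 on the Hist1h2aa side (chr13:23934576-23934691) and a 116-bp peak at E13.5 on the Hist1h2ba side (chr13:23933862-23933977). The same pair held H3K27me3 of 138 bp in Ebf2-EGFP- cells, and H3K27ac of 211 bp at E11.5 and 176 bp at E13.5 with none at E15.5. In both stages the H3K27ac peak lay on the other gene of the pair than the H3K27me3 peak. Hist1h4j had H3K27me3 of 118 bp at E13.5 beside H3K27ac of 712, 268 and 647 bp at the 3 stages. These 3 were thus the members with both marks at E13.5 (against 4.36% of all genes), the pair alone at E11.5 (2 members, against 1.22%), and none had both at E15.5 (against 0.351%). No member held H3K27me3 alone in any Ebf2-EGFP+ list.

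Taking both cell groups of E11.5, 39 members held H3K27me3 in Ebf2-EGFP- and H3K27ac in Ebf2-EGFP+ cells (58.2%, against 25.2% of all genes). Each of the 45 members with H3K27me3 in Ebf2-EGFP- cells held H3K27ac at 1 or more stages of Ebf2-EGFP+ cells, as did 92.5% of all genes with that H3K27me3 and 65 of all 67 members. At E11.5 the share of these 45 with H3K27ac was 86.7%, against 68.2% of the 22 members without H3K27me3. Over all genes the corresponding shares were 69.5% and 24.2%. The peaks themselves coincided: of the 38 H3K27me3 peaks near members in Ebf2-EGFP- cells, 28, 33 and 34 overlapped an H3K27ac peak of Ebf2-EGFP+ cells in order of stage (73.7%, 86.8% and 89.5%). Of the 8743 such peaks near any protein-coding TSS the shares were 56.5%, 53% and 66.5%. For members with few unique words, the copy to which either peak belongs cannot be told.

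Within a gene, the marks lay downstream of the TSS. H3K27ac coverage of members was highest 250 to 300 bp after the TSS at E11.5 (59.4% of members) and E13.5 (56.9%), and 200 to 250 bp after it at E15.5 (81.1%). H3K27me3 in Ebf2-EGFP- cells peaked at the same place, 200 to 250 bp after the TSS, at 44.3%. The median member starts its coding sequence 33 bp after the TSS, so this is coding sequence in most of them. It is also the side with fewer unique words, a median of 42.4% in the 500 bp after the TSS and 100% in the 500 bp before it. The part of this in the profile was not tested. Over all protein-coding genes coverage in the same lists was also highest downstream, 150 to 200 bp after the TSS. There it was 24.8%, 18% and 36.4% for H3K27ac and 15.1% for H3K27me3, so a downstream maximum is not particular to the members. Just before the TSS the members were lower: in the last 100 bp, 4.81%, 2.64% and 17% were covered by H3K27ac at the 3 stages, against 11.9%, 12% and 23.1% of all genes. For H3K27me3 in Ebf2-EGFP- cells the figures were 1.94% and 9.73%. A second rise, around 500 bp upstream, reached 38.8% at E15.5, where the partner of a divergent pair lies.

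**Figure D4:**
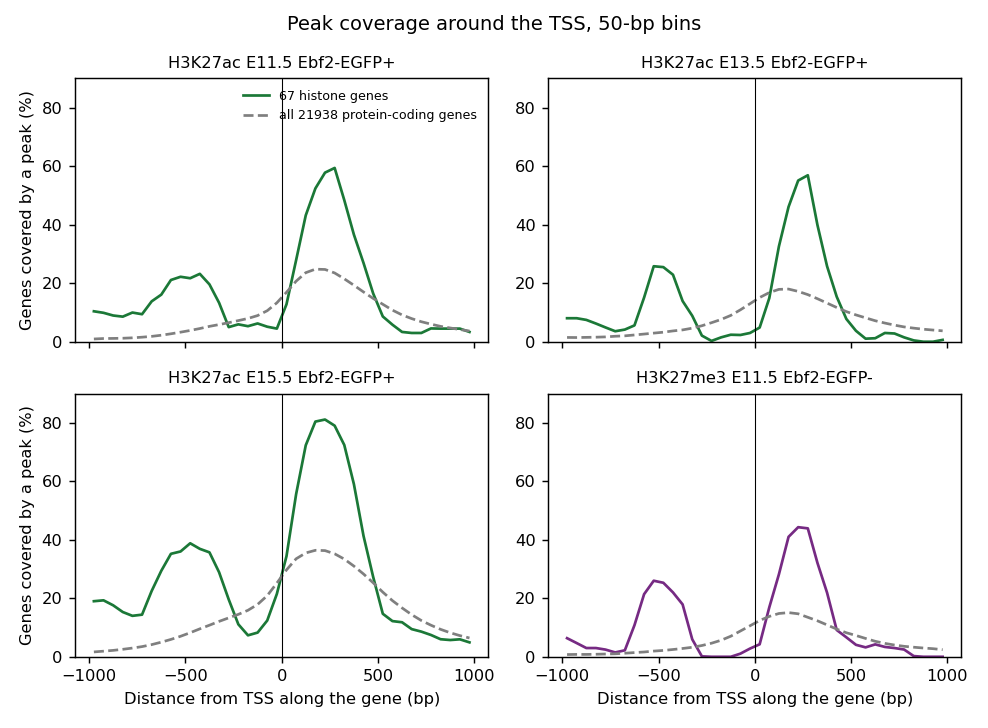
Share of genes covered by a peak (percent, vertical axis) in 50-bp bins along the gene from 1000 bp before to 1000 bp after the TSS (horizontal axis), for the 67 histone genes (solid) and all 21938 protein-coding genes (dashed), in the 4 lists that mark most members. Coverage of histone genes is highest 200 to 300 bp after the TSS, at 59.4%, 56.9%, 81.1% and 44.3%, and low between it and the rise around 500 bp upstream.

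The 13 divergent pairs show this gap most plainly. In 12 the pair is H2A with H2B, and in the other it is Hist1h2bh with Hist1h3f. Their TSS are 175 to 659 bp apart, with a median of 267 bp. The 3698 bp between them in all were not covered by a single base in 7 of the 8 lists, and by 81 bp (2.19%) of H3K27ac at E15.5. Of those 7, the Ebf2-EGFP- H3K27ac list and the Ebf2-EGFP+ H3K27me3 lists had a peak at 1 pair or none. Their lack of coverage therefore says little about a gap. Divergent pairs of other genes were not counted for comparison. H3K27ac peaks nevertheless flanked 11, 12 and 12 of the 13 pairs at the 3 stages, and H3K27me3 peaks 12 pairs in Ebf2-EGFP- cells. Peak centres lay on both sides of the gap in 5, 6 and 11 pairs for H3K27ac and in 6 for H3K27me3. The pairs Hist1h2bq with Hist1h2ao and Hist1h2ap with Hist1h2br are among the copies with no unique word after the TSS.

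The pair Hist1h2ae and Hist1h2bg, whose 175 bp between TSS are printed above with 2 CCAAT, 1 ATTTGCAT and 1 TATAAA, is an example. Its H3K27ac peaks were 215, 224 and 325 bp on Hist1h2ae and 249, 310 and 439 bp on Hist1h2bg in order of stage. In Ebf2-EGFP- cells it had H3K27me3 of 171 bp on Hist1h2ae and 235 bp on Hist1h2bg. The E15.5 H3K27ac peaks ended at position 23571083 on one side and began at 23571428 on the other, outside the printed stretch. Hist1h4j, which stands alone, differed: its H3K27ac peak at E11.5 (chr13:21734826-21735537) ran over nearly all of the 250 bases printed for it.

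**Figure D5:**
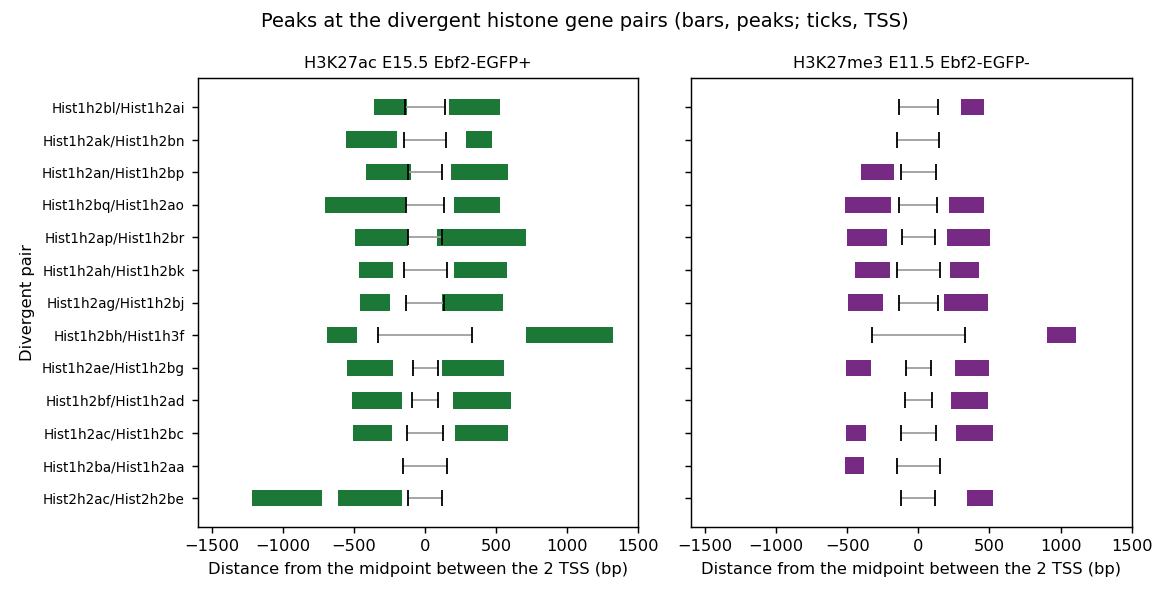
Peaks (bars) at the 13 divergent histone gene pairs, by distance in bp from the midpoint between the 2 TSS (black ticks joined by a grey line), for H3K27ac of E15.5 neurons (left) and H3K27me3 of the Ebf2-EGFP- cells (right). Peaks lie to the sides of the stretch between the TSS, of which 2.19% is covered on the left and 0% on the right.

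The 54 genes of chromosome 13 fall into 3 runs when a gap of 200 kb ends a run: 18 genes from Hist1h2bl to Hist1h2br (chr13:21705763-21847530), 5 from Hist1h2ah to Hist1h2bj (chr13:22025164-22053676) and 31 from Hist1h4h to Hist1h2aa (chr13:23521050-23944851), each with 10 kb added at both ends. Together they span 594.1 kb. Within them the Ebf2-EGFP- lists had 1 H3K27ac and 33 H3K27me3 peaks, and the Ebf2-EGFP+ lists had 41, 51 and 53 H3K27ac and 1, 2 and 0 H3K27me3 peaks in order of stage. Relative to the peaks per Mb of each whole list, that is 5.08, 2.27 and 9.43 times for H3K27ac in Ebf2-EGFP+ cells and 3.09 times for H3K27me3 in Ebf2-EGFP- cells. The whole-list rates cover all of the genome, gene-poor parts included, while the runs hold 54 member TSS in 594.1 kb. For H3K27ac those rates were 13.6, 37.7 and 9.46 peaks per Mb, so the ratios also vary with list length. The other 4 lists had at most 2 peaks each in the runs.

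These peaks kept to the histone genes. Of the H3K27ac peaks 85.4%, 76.5% and 88.7% lay within 1 kb of a member TSS at the 3 stages, and of the H3K27me3 peaks in Ebf2-EGFP- cells 97%, while 13.4% of the bases of the runs lie that near. The third run also holds 6 protein-coding genes of other kinds: Hfe, an iron regulator, Trim38, and the transporters Slc17a1, Slc17a2, Slc17a3 and Slc17a4. None of the 6 was marked in any of the 8 lists. H3K27ac was at 17 of 18 members of the first run at each stage, at 3, 5 and 5 of 5 in the second and at 23, 22 and 25 of 31 in the third. The unmarked gene of the first run was Hist1h4n at E11.5 and Hist1h1b at E13.5 and E15.5.

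H3K27ac peaks near members were narrower than near genes at large. Median widths of H3K27ac peaks within 1 kb of a member TSS were 295, 215 and 377 bp at the 3 stages, against 326, 226 and 551 bp near any protein-coding TSS. The H3K27me3 peaks in Ebf2-EGFP- cells had medians of 227.5 and 231 bp. The height of the peaks is not given in the files. Counting only peaks of at least 300 bp, the members' share was 41.8% against 24.9% of all genes at E11.5, 16.4% against 16.4% at E13.5 and 83.6% against 39.1% at E15.5, so the E13.5 difference was not there among wide peaks. For H3K27me3 in Ebf2-EGFP- cells it was 20.9% against 13.2%. Among the 1386 widest peaks of each H3K27ac list, members stood at 4.48%, 0% and 0%, against 5.79%, 1.12% and 6.39% of all genes. Among the 1438 widest H3K27me3 peaks of Ebf2-EGFP- cells it was 0% against 2.52%. The excess of members was thus not there among the widest peaks. These are counts of 3 or 0 of 67, with Wilson intervals of 1.53 to 12.4% and 0 to 5.42%. Those intervals hold the share of all genes except for H3K27ac at E15.5, where members were lower.

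Replacement histones, which as a rule are put into chromatin outside S phase and have mRNAs with poly(A) tails, were compared as 11 genes. Of these, H2afx was among the 9 other genes in which the stem-loop was found. H3K27ac was at 9, 6 and 9 of 11 in Ebf2-EGFP+ cells (81.8%, 54.5% and 81.8%, against 40.6%, 44.5% and 46% of all genes). In Ebf2-EGFP- cells it was at 1, H1f0 (9.09%, against 3.63%). H3K27me3 in Ebf2-EGFP- cells was at 7 of 11 (63.6%, against 36.2%), among them H3f3a, H2afz and H2afx. In Ebf2-EGFP+ cells it was at H1f0 alone, at E13.5 (9.09%, against 5.34%). H3f3b, the other H3.3 gene, held H3K27ac only at E13.5, and Cenpa, the centromere H3, had none. These shares lay near those of the replication-dependent genes in each list but that of H3K27ac at E13.5. There the 54.5% was nearer to the 44.5% of all genes, and with only 11 genes the difference was not tested.

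The 12 factors that transcribe histone genes or process their mRNA include Npat, the activator of histone transcription, Slbp, and Lsm10 and Lsm11 of the U7 particle. H3K27ac was at 9, 7 and 11 of the 12 at the 3 stages of Ebf2-EGFP+ cells (75%, 58.3% and 91.7%). All genes stood at 40.6%, 44.5% and 46%. H3K27me3 in Ebf2-EGFP- cells was at 6 of 12 (50%, against 36.2%). Npat and Lsm11 had H3K27ac at all 3 stages and H3K27me3 in Ebf2-EGFP- cells. Slbp had H3K27ac at all 3 stages and no H3K27me3. Lsm10 was the 1 factor with H3K27me3 in an Ebf2-EGFP+ list, at E13.5, and it held H3K27ac at E15.5 only. Zfp473 had no H3K27ac in any list.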

How the data were processed

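ChIP-seq reads were aligned by the authors to mm10 with Bowtie 1.1.2 on Galaxy, and MACS then gave the peaks. Its version, the pooling of replicates and the use of the inputs in calling are not given in the sources used here. The authors deposited 1 list of peak coordinates for each ChIP group, with a score that was 0 for every peak, so depth and peak height are unknown. Starts were read as counted from 0 and are printed counted from 1. Input samples had no list and were not used here.

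The annotation was GENCODE M21, on GRCm38 like mm10, and a peak counted with an overlap of at least 1 bp. Sequences were cut from the RefSeq copy of GRCm38, since the RefSeq promoter table matched 0 of 67 symbols. Python 3.11.15, numpy 2.4.6, scipy 1.17.1 and matplotlib 3.10.9 were used, and the placing of peaks was tested on simulated peaks. Unique words were counted over chromosomes 1 to 19, X and Y on both strands. Intervals are 95% Wilson intervals. There is 1 list per group, so no test was made, and every comparison is a description.

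The members and gene lists were chosen with earlier results of these data known. Genes were named by rule: members with H3K27ac in Ebf2-EGFP- cells, with H3K27me3 in an Ebf2-EGFP+ list, with H3K27ac at 1 stage or none, those nearest to the widest peaks, the germline members and those outside chromosome 13. Others were named to account for small counts or as sequence examples after their values were seen. Alternatives changed the window, the choice of TSS, the peaks counted, the unit and the members.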

Additional observations from a re-analysis of the deposited data

How the results depend on the processing

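No paired analysis was possible because each group had 1 peak list and no result came from a test, and for the same reason no sample could be left out. Of 196 values under alternatives, 145 stayed within the interval of the reported share or within 1.5 times the reported count, and 51 moved; the cause was not tested beyond what each setting does. All values stayed under a 500 bp window, peak centres, any annotated transcript start, promoter units, start codons (added after seeing the data), other gaps between runs and other flanks.

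With a 5 kb window H3K27ac in Ebf2-EGFP+ cells was at 91%, 91% and 97% of members, against 49.9%, 60.9% and 52.3% of all genes. H3K27me3 in Ebf2-EGFP- cells was at 85.1%, against 48.2% of all genes, and both marks there were at 13.4% of members. H3K27ac at all 3 stages was at 79.1% and H3K27me3 with H3K27ac across E11.5 at 77.6%. With peaks of at least 300 bp the shares were 0% for H3K27ac in Ebf2-EGFP- cells, 41.8% and 16.4% for it in Ebf2-EGFP+ cells at E11.5 and E13.5, 7.46% at all 3 stages, 20.9% for H3K27me3 in Ebf2-EGFP- cells, 11.9% across E11.5, and 0% for H3K27me3 in Ebf2-EGFP+ cells and for both marks in each group. Peaks in the chromosome 13 runs were then 0, 16 and 8 for H3K27ac up to E13.5, and 8, 0 and 0 for H3K27me3. With the widest peaks, as many as in the shortest list of the mark, H3K27ac in Ebf2-EGFP+ cells was at 4.48%, 0% and 0%, and H3K27me3 in each group, both marks, all 3 stages and the change across E11.5 were at 0%; the runs held 1, 0 and 0 H3K27ac peaks in Ebf2-EGFP+ cells and 0 H3K27me3 peaks. Merging peaks within 1 kb left 34 of the 53 H3K27ac peaks at E15.5. Without germline members, H3K27me3 and both marks at E11.5 in Ebf2-EGFP+ cells were at 0%. Over the 13 members outside chromosome 13, H3K27ac was at 23.1% in Ebf2-EGFP- cells and 100% at E15.5, both marks in Ebf2-EGFP- cells at 15.4%, and H3K27me3 and both marks in Ebf2-EGFP+ cells at 0%.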

Other observations

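Inside the chromosome 13 runs, 6, 12 and 4 H3K27ac peaks of Ebf2-EGFP+ cells, in order of stage, lay over 1 kb from any member TSS and were near neither a tRNA gene (within 500 bp) nor another protein-coding TSS. The runs hold 9 tRNA genes in the RefSeq annotation, templates for the adaptors of translation, of which 8 lie over 2 kb from a member TSS. At E15.5, 2 of those 8 had an H3K27ac peak within 500 bp, and in the other 7 lists none had a peak.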
